A study of Mus musculus with 16 samples.

Results

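The myeloid C-type lectin receptors described here are 6 receptor genes, Clec4d, Clec4e, Clec4n, Clec7a, Clec10a and Clec12a, together with Card9, the adaptor that several of them signal through. They were taken by gene symbol from a set list drawn up with earlier results of these data known, and all 7 were found among the 19938 genes measured. Each had 1 probe set on the Affymetrix Mouse Gene 1.0 ST array. Footpad RNA came from 16 mice, 4 in each of 4 groups: AIRmax pristane, AIRmax control, AIRmin pristane and AIRmin control. AIRmax and AIRmin are outbred stocks bred for a high or a low acute inflammatory response, so mice of a line are not genetically identical, and the study asked how they differ in arthritis brought on by pristane, a mineral oil. Pristane footpads were taken on day 160 after 2 intraperitoneal injections of 0.5 ml given 60 days apart, and control footpads on day 0, which leaves treatment and time inseparable in both lines. Each group held 2 males and 2 females, and the labels give an age of 2 to 4 months for every group without saying on which day. The labels set the control mice apart from the pristane-induced mice without stating whether they had received pristane.

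C-type lectin receptors are surface proteins with which macrophages, dendritic cells and neutrophils sense sugars and glycolipids of microbes and material of damaged cells. Clec4n (Dectin-2), Clec4d (MCL) and Clec4e (Mincle) pair with the Fc receptor gamma chain Fcer1g and Clec7a (Dectin-1) carries its own signalling motif. All of these recruit the kinase Syk, after which Card9 joins Bcl10 and Malt1 and activates NF-kappaB and cytokine genes. Clec12a (MICL) carries an inhibitory motif that recruits phosphatases, and Clec10a (MGL1), a galactose-binding lectin, marks tissue macrophages and dendritic cells.

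Of the 7 genes, 5 lie on chromosome 6, in 2 separate lectin clusters, while Clec10a lies on chromosome 11 and Card9 on chromosome 2. A promoter of 300 bases, from 250 before the start to 50 after it, was found in RefSeq (GRCm38.p6) for 5 of the 7 genes, Clec4n and Clec10a being the others. Those of Clec4d and Clec4e, the genes with the largest pristane differences in AIRmax, are shown with those of Clec7a and Clec12a, which lie in the other cluster and differed by little with pristane. Capitals mark GAGGAA, the core letters bound by the myeloid factor PU.1, or TTCCTC, the same letters on the other strand. In the same order they are chr6:123261857-123262156 on the plus strand, chr6:123289822-123290121 on the minus strand, chr6:129472730-129473029 on the minus strand and chr6:129349994-129350293 on the plus strand.
Clec4d: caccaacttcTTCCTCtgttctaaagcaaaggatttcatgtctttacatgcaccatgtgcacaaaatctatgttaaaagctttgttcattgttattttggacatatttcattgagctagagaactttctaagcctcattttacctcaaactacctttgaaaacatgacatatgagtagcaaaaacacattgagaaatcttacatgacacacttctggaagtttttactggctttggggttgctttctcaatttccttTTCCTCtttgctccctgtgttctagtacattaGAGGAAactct
Clec4e: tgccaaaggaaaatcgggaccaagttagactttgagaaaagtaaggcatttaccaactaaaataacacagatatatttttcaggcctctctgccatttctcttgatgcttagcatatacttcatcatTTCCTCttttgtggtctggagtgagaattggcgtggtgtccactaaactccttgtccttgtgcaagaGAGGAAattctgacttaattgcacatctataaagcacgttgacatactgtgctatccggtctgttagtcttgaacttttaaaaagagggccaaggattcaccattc
Clec7a: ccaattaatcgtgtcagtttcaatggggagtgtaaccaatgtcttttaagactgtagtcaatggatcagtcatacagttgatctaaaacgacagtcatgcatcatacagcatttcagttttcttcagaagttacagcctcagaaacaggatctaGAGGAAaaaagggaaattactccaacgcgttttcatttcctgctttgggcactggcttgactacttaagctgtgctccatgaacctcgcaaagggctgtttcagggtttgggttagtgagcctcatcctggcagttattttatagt
Clec12a: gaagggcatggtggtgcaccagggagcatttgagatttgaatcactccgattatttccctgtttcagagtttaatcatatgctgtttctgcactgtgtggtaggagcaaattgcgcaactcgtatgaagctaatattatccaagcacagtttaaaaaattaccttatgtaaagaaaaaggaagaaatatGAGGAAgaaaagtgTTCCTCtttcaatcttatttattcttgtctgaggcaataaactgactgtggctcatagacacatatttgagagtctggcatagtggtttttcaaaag
GAGGAA occurred 3 times in the Clec4d promoter, 2 times each in those of Clec4e and Clec12a, once in that of Clec7a and not in that of Card9, with both strands read. Clec7a had 2 promoter entries, and only the first was searched. It occurred in 28.3% of the 27025 promoters of the same length. TTGCNNAA (the C/EBP letters) was found once each in Clec4e and Clec12a and in 10.8% of all promoters, and TGANTCA (AP-1) once in Clec12a and in 7.93% of all promoters. The NF-kappaB motif, whose end can overlap with TTCCTC, was found in none of the 5 and in 5.52% of all promoters. These matches describe the letters in the window and are not binding sites.

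The values are log2 signals normalized by the authors, with array medians from 5.435 to 5.53. The tissue label was borne out by 6 keratinocyte markers, whose mean log2 signal was 11.23, 11.68, 12.01 and 11.85 in AIRmax pristane, AIRmax control, AIRmin pristane and AIRmin control footpads. Xist and the Y-linked genes separated the labelled sexes on all arrays. Genes silent in one sex read 2.04 to 4.32 there, and the lowest members, Clec4d at 4.11 and Clec4e at 4.32, lay in that range on array 119 of the AIRmin pristane group. Arrays carry the numbers 109 to 112 in AIRmax pristane, 105 to 108 in AIRmax control, 117 to 120 in AIRmin pristane and 113 to 116 in AIRmin control mice, so array order and group cannot be told apart. The first 2 numbers of each group are males. Arrays 108, 109, 112 and 118 carried the most granulocyte precursor RNA, with a mean log2 signal of 9 markers from 10.71 to 11.46, against 6.52 to 9.70 on the other arrays. Results that rest on these 4 arrays are therefore given without them as well.

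In AIRmax footpads Clec4d was the member that passed the test after pristane, at 5.39 times its control signal (adjusted p = 0.0264, limma with Benjamini-Hochberg adjustment over all 19938 genes). Thus 1 of 7 members was called in AIRmax pristane against AIRmax control footpads, beside 0.281% of all genes, while 3 had an unadjusted p under 0.05 (14.4% of all genes) and SAM, the permutation method of the study as written anew for this work, called 3 (3.4% of all genes). In the AIRmin response limma called 0 of 7 members, beside 0% of all genes, while 3 members had an unadjusted p under 0.05 (12.4% of all genes) and SAM called 1 (1.95% of all genes). Between the lines after pristane Clec4n and Clec4d were called, 2 of 7 members beside 1.36% of all genes, and both were higher in AIRmax, while 5 had an unadjusted p under 0.05 (18.8% of all genes). Between control footpads limma called 0 of 7 (0.0802% of all genes), 6 had an unadjusted p under 0.05 (16.8% of all genes) and SAM called 1 (1.29% of all genes). When the AIRmin response was subtracted from that of AIRmax, 1 of 7 members was called, Clec4n, beside 0.171% of all genes. The median difference of the 7 members was 0.33, 0.20, 1.57, 0.85 and 0.45 on the log2 scale in these comparisons in turn, while the median over all genes lay between -0.032 and 0.029. In whole footpads, fewer cells of a type and less RNA per cell cannot be told apart.

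**Figure D1:**
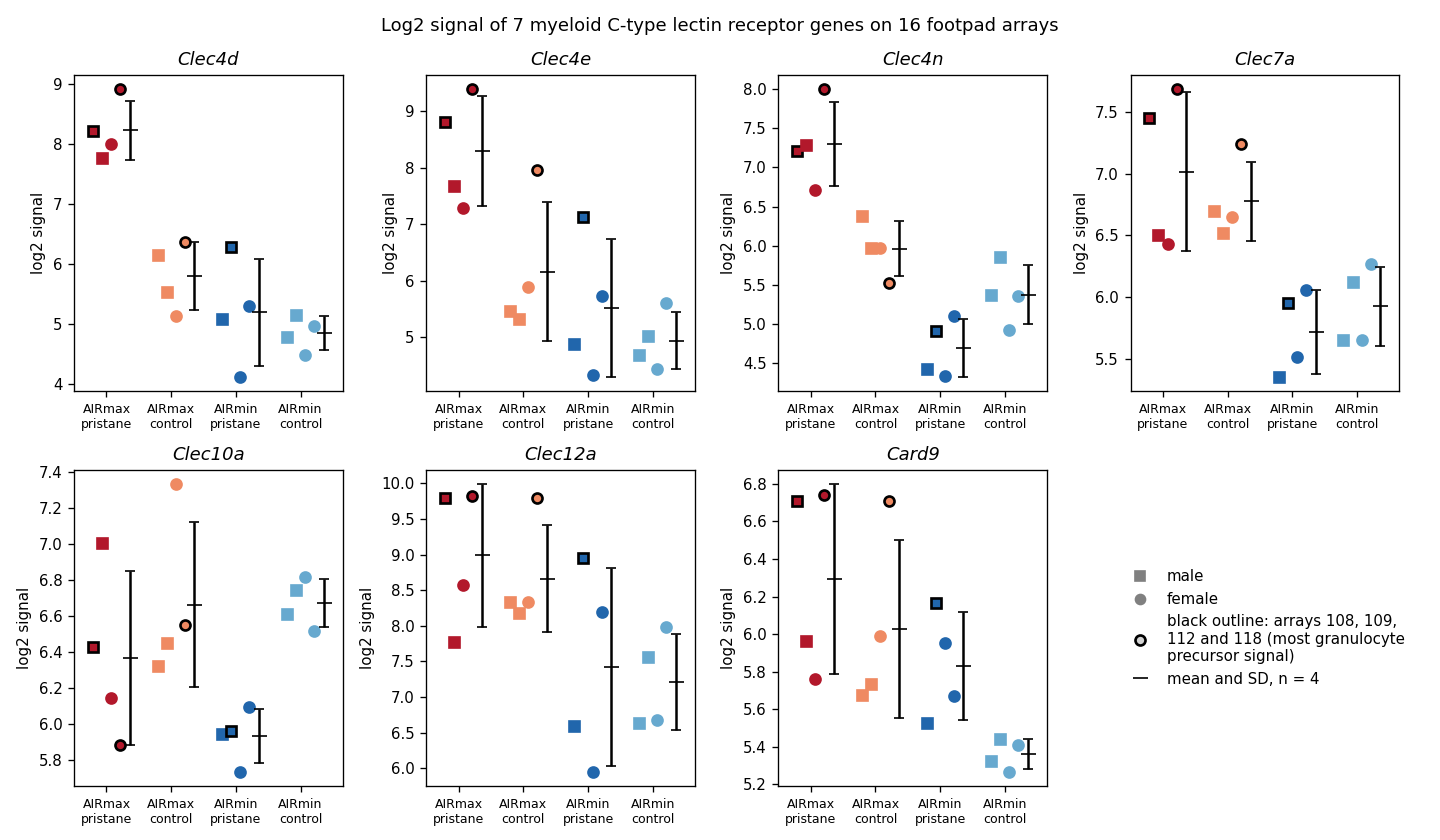
Log2 signal of each gene (vertical axis) on the 4 arrays of each group (horizontal axis), squares for males, circles for females, bars for the mean and SD (n = 4), and black outlines for arrays 108, 109, 112 and 118. All 4 AIRmax pristane arrays lie above every other array for Clec4d and Clec4n, while the groups overlap for Clec12a within each line.

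Clec4d, which helps bring Clec4e to the cell surface and binds mycobacterial glycolipid, had log2 signals of 8.21, 7.77, 7.998 and 8.91 in AIRmax pristane footpads, against 6.14, 5.53, 5.14 and 6.36 in AIRmax control footpads. In AIRmin pristane footpads it read 5.08, 6.29, 4.11 and 5.30, against 4.78, 5.15, 4.49 and 4.97 in AIRmin control footpads. The AIRmax pristane arrays stood clear above all other arrays, and the remaining groups overlapped with their neighbours in the order AIRmax control, AIRmin pristane, AIRmin control. The response was 2.43 ± 0.31 in AIRmax (log2 difference ± SE, 95% confidence interval 1.72 to 3.14) and 0.35 ± 0.38 in AIRmin (-0.49 to 1.19, adjusted p = 0.759 by limma). Their difference, 2.08 (0.94 to 3.22), did not pass the test of the interaction (adjusted p = 0.174 by limma). Clec4d was 3.03 ± 0.42 higher in AIRmax pristane than in AIRmin pristane footpads, an 8.16-fold difference (adjusted p = 0.0203 by limma). It was 0.95 ± 0.26 higher in AIRmax control than in AIRmin control footpads, which did not pass (adjusted p = 0.203 by limma). The call of the AIRmax response was lost in limma when array 105, 106, 107, 110, 111 or 112 was left out (adjusted p = 0.0821, 0.0991, 0.0794, 0.0551, 0.0576 and 0.0515 in turn), with sizes of 2.20 to 2.58 in those fits. Between the lines after pristane the call was lost without array 112, 117 or 120 (adjusted p = 0.0525, 0.0796 and 0.0609 by limma), and the interaction passed without array 118 (2.45, adjusted p = 0.0387 by limma) and without arrays 108, 109, 112 and 118 (2.30, adjusted p = 0.0479 by limma).

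Clec4e, the receptor for mycobacterial cord factor and for a nuclear protein let out by dying cells, had log2 signals of 8.82, 7.68, 7.30 and 9.39 in AIRmax pristane footpads, against 5.46, 5.32, 5.88 and 7.97 in AIRmax control footpads. In AIRmin it read 4.88, 7.13, 4.32 and 5.73 after pristane, against 4.69, 5.02, 4.43 and 5.61 in controls. Array 108 of the AIRmax controls lay among the AIRmax pristane arrays, and array 118 of AIRmin pristane stood apart above the other arrays of its group. Clec4e had the widest spread of the 7 genes, with a pooled SD within groups of 1.03, against 0.35 for Clec10a. The response in AIRmax was 2.14 ± 0.65 (0.68 to 3.60, adjusted p = 0.198 by limma) and that in AIRmin 0.58 ± 0.53 (adjusted p = 0.714 by limma). After pristane all 4 AIRmax arrays were above all 4 AIRmin arrays, by 2.78 ± 0.63 on average (1.35 to 4.21), with an adjusted p of 0.0698 in limma. Without arrays 108, 109, 112 and 118 the AIRmax response was 1.94 and passed (adjusted p = 0.0115 by limma), as did the difference between the lines after pristane (2.51, adjusted p = 0.0345 by limma). These 4 arrays were the highest Clec4e arrays of their groups, so leaving them out also narrowed its spread. Of AIRmax pristane only arrays 110 and 111 then remained. The difference between the lines after pristane also passed without array 118 alone (3.32, adjusted p = 0.0360 by limma) and with all 16 arrays in 1 fit (adjusted p = 0.0189 by limma). SAM called the AIRmax response of Clec4e on all arrays but not the difference between the lines after pristane.

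Clec4n, the receptor for fungal mannans, had log2 signals of 7.21, 7.28, 6.71 and 7.996 in AIRmax pristane footpads, against 6.37, 5.98, 5.97 and 5.52 in AIRmax control footpads. In AIRmin it read 4.44, 4.92, 4.33 and 5.10 after pristane, against 5.37, 5.85, 4.93 and 5.36 in controls. The lines thus moved apart, with AIRmax pristane above every control array and 3 of 4 AIRmin pristane arrays below the lowest AIRmin control array. The response was 1.33 ± 0.27 in AIRmax (0.73 to 1.94, adjusted p = 0.0870 by limma) and -0.68 ± 0.22 in AIRmin (-1.17 to -0.19, adjusted p = 0.240 by limma). Neither passed alone in limma on the 8 arrays of its line. That of AIRmax was called by SAM and by limma when all 16 arrays shared 1 estimate of the spread (adjusted p = 0.0194). Without arrays 108, 109, 112 and 118 the AIRmax response was 0.89 and was not called. The test of the difference between the responses passed, at 2.02 ± 0.37 (1.22 to 2.81, adjusted p = 0.0434 by limma). After pristane Clec4n was 2.60 ± 0.27 higher in AIRmax (1.99 to 3.21), a 6.07-fold difference, and this call was kept when any 1 of the 8 arrays was left out. In control footpads the difference between the lines was 0.58 ± 0.22 (adjusted p = 0.242 by limma). The interaction kept its call in 5 of the 16 fits that left out 1 array, those without array 109, 111, 115, 118 or 120. In the other 11 its size was 1.78 to 2.15 and its adjusted p in limma 0.0502 to 0.112, and without arrays 108, 109, 112 and 118 it was 1.64 (adjusted p = 0.0833 by limma).

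**Figure D2:**
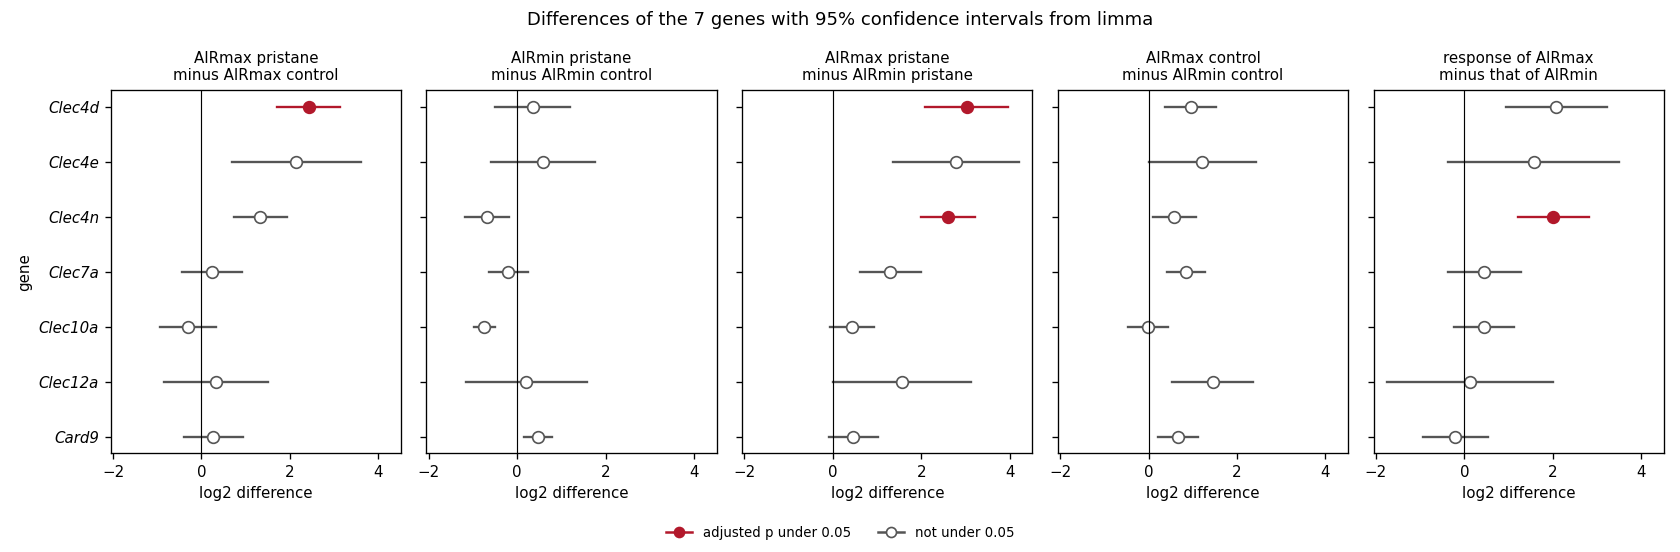
Difference of each gene (horizontal axis, log2, with the 95% confidence interval from limma) in the 4 comparisons of groups and in the response of AIRmax minus that of AIRmin, filled where the adjusted p was under 0.05. Clec4d was called in AIRmax pristane against AIRmax control, Clec4d and Clec4n in AIRmax pristane against AIRmin pristane, and Clec4n in the difference of the responses.

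Clec7a, the receptor for fungal beta-glucan, separated by line more than by treatment. Its log2 signals were 7.45, 6.50, 6.43 and 7.68 in AIRmax pristane, against 6.70, 6.52, 6.65 and 7.24 in AIRmax control footpads, and 5.35, 5.95, 5.51 and 6.06 in AIRmin pristane, against 5.65, 6.12, 5.65 and 6.27 in AIRmin control footpads. Each AIRmax array lay above all 8 AIRmin arrays, and the treatments overlapped within each line. The difference between the lines was 1.30 ± 0.30 after pristane (0.62 to 1.98, adjusted p = 0.0720 by limma) and 0.85 ± 0.19 in controls (0.42 to 1.29, adjusted p = 0.152 by limma). SAM called that of controls, and limma called that after pristane when all 16 arrays shared 1 estimate of the spread (adjusted p = 0.0121) or when array 110 was left out (1.47, adjusted p = 0.0498). Under the other 15 of 17 alternatives the difference after pristane was not called. Without the arrays richest in granulocyte precursor RNA it fell to 0.83. Responses to pristane were 0.24 (-0.45 to 0.93) in AIRmax and -0.21 (-0.65 to 0.23) in AIRmin, and neither passed.

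Clec12a, the inhibitory receptor of neutrophils and monocytes, showed the same order of lines with a wide spread inside the groups. It read 9.80, 7.77, 8.57 and 9.82 in AIRmax pristane, against 8.34, 8.18, 8.33 and 9.79 in AIRmax control footpads, and 6.59, 8.95, 5.95 and 8.19 in AIRmin pristane, against 6.63, 7.56, 6.68 and 7.99 in AIRmin control footpads. The treatments overlapped in both lines, and the control arrays did not overlap between the lines. In controls the difference between the lines was 1.45 ± 0.41 (0.53 to 2.37, adjusted p = 0.205 by limma), and after pristane 1.57 ± 0.69 (0.011 to 3.13, adjusted p = 0.263 by limma). The responses were 0.33 (-0.84 to 1.50) in AIRmax and 0.20 (-1.16 to 1.57) in AIRmin, intervals wide enough to hold a change of more than 2-fold either way in AIRmin. Without arrays 108, 109, 112 and 118 they were -0.12 and -0.31, so no direction can be read from them.

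Clec10a, like Clec4n and Clec7a, had its lowest group mean in AIRmin pristane footpads. It read 5.94, 5.96, 5.73 and 6.09 in AIRmin pristane footpads, against 6.61, 6.74, 6.82 and 6.52 in AIRmin control footpads, with no overlap. In AIRmax it read 6.43, 7.01, 6.15 and 5.88 after pristane, against 6.32, 6.45, 7.34 and 6.55 in controls, and these overlapped. The response in AIRmin was -0.74 ± 0.11 (-0.98 to -0.50), 1.67-fold lower, with an adjusted p of 0.0513 in limma, just short of the threshold. SAM called it, and limma did so with a trended robust prior (adjusted p = 0.0430), among genes above the median signal (adjusted p = 0.0399) and without array 118 (adjusted p = 0.0456). In AIRmax the response was -0.30 ± 0.28 (-0.93 to 0.34), made up of 0.34 in males and -0.93 in females. The difference between the responses was 0.45 (-0.23 to 1.12, adjusted p = 0.791 by limma), and the control groups of the lines differed by -0.0098 (-0.46 to 0.44).

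Card9 was lowest in AIRmin control footpads and varied least there. Its log2 signals were 6.71, 5.96, 5.76 and 6.74 in AIRmax pristane, against 5.67, 5.73, 5.99 and 6.71 in AIRmax control footpads, and 5.52, 6.16, 5.95 and 5.67 in AIRmin pristane, against 5.32, 5.44, 5.27 and 5.41 in AIRmin control footpads. All 4 AIRmin pristane arrays and all 4 AIRmax control arrays were above all 4 AIRmin control arrays. The response was 0.47 ± 0.14 in AIRmin (0.16 to 0.78, adjusted p = 0.200 by limma) and 0.27 ± 0.29 in AIRmax (adjusted p = 0.710 by limma). The lines differed by 0.67 ± 0.20 in controls (adjusted p = 0.212 by limma) and by 0.47 ± 0.25 after pristane (adjusted p = 0.350 by limma). None of these passed, and SAM called none of them. Without the arrays richest in granulocyte precursor RNA the AIRmax response was 0.064 and the difference between the lines after pristane 0.145.

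Counted by overlap, 2 of 7 members had all AIRmax pristane arrays above all AIRmax control arrays (Clec4d and Clec4n), which held for 5.09% of all genes. In AIRmin, Card9 was higher on all pristane arrays (3.19% of all genes) and Clec10a lower on all (4.32% of all genes). After pristane 4 members, Clec4d, Clec4e, Clec4n and Clec7a, were higher on all AIRmax arrays than on all AIRmin arrays (5.04% of all genes). In controls 3 members, Clec7a, Clec12a and Card9, were higher on all AIRmax arrays (5.39% of all genes). The comparisons share arrays, so that the AIRmax pristane group enters both its response and its difference from AIRmin pristane, and their counts are not separate evidence. Between males and females the differences of Clec4n were alike in size, at 2.57 and 2.63 in AIRmax pristane minus AIRmin pristane, and those of Clec4d were 2.31 and 3.75. With 2 mice of each sex in a group these values were not tested.

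Clec4n, Clec4d and Clec4e are the last 3 of 9 lectin genes that follow each other on chromosome 6. In chromosomal order from Clec4a1 the AIRmax responses were 1.22 (Clec4a1), 0.90 (Clec4a3), 0.25 (Clec4a4), 0.20 (Clec4b1), 0.63 (Clec4a2), 0.43 (Clec4b2), 1.33 (Clec4n), 2.43 (Clec4d) and 2.14 (Clec4e). The 3 largest were thus those of the 3 members, and Clec4d was the 1 gene of the 9 that passed (the other adjusted p values in limma were 0.0870 to 0.771). In AIRmin the responses of the 9 ran between -0.82 (Clec4a3) and 0.58 (Clec4e), with adjusted p of 0.126 or more in limma. Clec4a1 and Clec4a3, neighbours that were 2.01 and 1.82 higher in AIRmax pristane than in AIRmin pristane footpads (adjusted p = 0.0263 and 0.0385 by limma), had differences of response of 1.71 and 1.72 (adjusted p = 0.0843 and 0.0993 by limma). The Clec4a and Clec4b genes are close copies of each other, so a probe set of one may also read another, and Clec4a4 and Clec4b1, with group means of 2.61 to 2.87 and 2.86 to 3.95, read in the range of silent genes. In the second cluster, from Clec12a to Olr1, the AIRmax responses of the 7 genes lay between -0.56 (Clec1b) and 1.13 (Olr1, a scavenger receptor for oxidized lipoprotein), with adjusted p of 0.343 or more in limma.

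**Figure D3:**
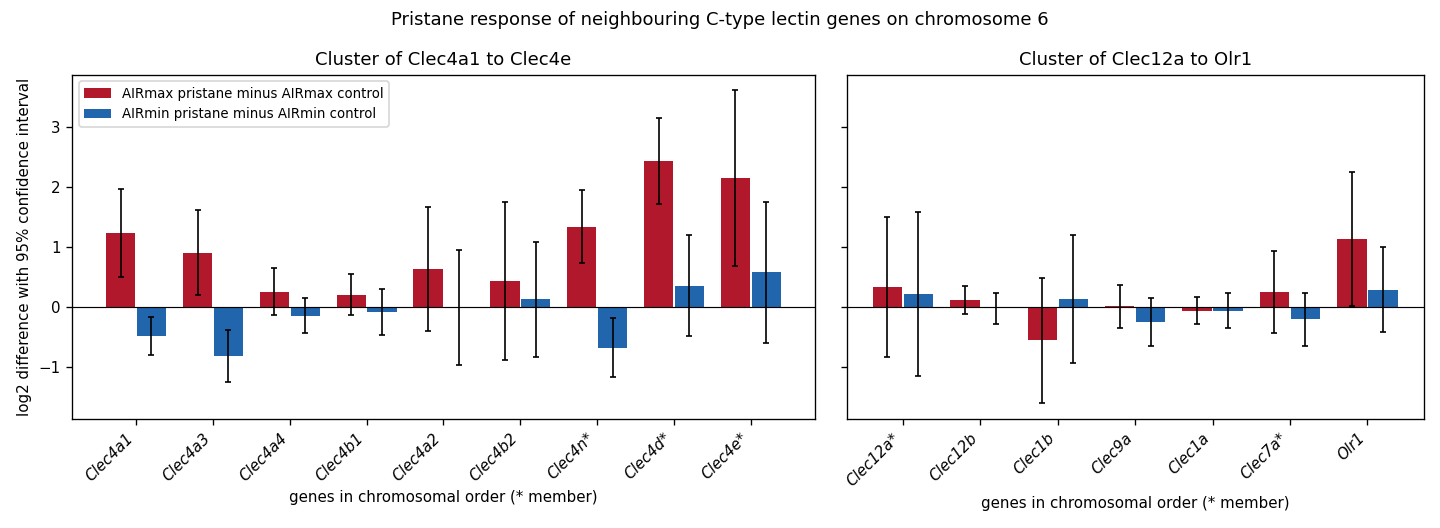
Response to pristane (vertical axis, log2 difference with the 95% confidence interval from limma) of the lectin genes in the 2 chromosome 6 clusters in chromosomal order, red for AIRmax and blue for AIRmin. In AIRmax the bars of Clec4d (2.43) and Clec4e (2.14) are the tallest of the first cluster, and in the second cluster Olr1 (1.13) is.

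Of 31 other C-type lectin receptor genes, 4 were called between AIRmax pristane and AIRmin pristane footpads, beside 1.36% of all genes. All were higher in AIRmax: Clec4a1, Clec4b1, Cd302 (0.84) and Clec4a3. Clec4b1 read no higher than silent genes on any array, so no size is given for it. In the AIRmin response limma called 0 of the 31 and SAM called 6 (1.95% of all genes). There 14 had an unadjusted p under 0.05 (12.4% of all genes), all 14 of them lower after pristane. The smallest p values there were those of Cd302 (-0.51) and Mrc1 (-0.81), the macrophage mannose receptor, each with an adjusted p of 0.0513 in limma, and the median of the 31 was -0.30, against 0.018 over all genes. In the AIRmax response limma called 0 of 31, 7 had an unadjusted p under 0.05, 4 of them higher and 3 lower, and SAM called 2, beside the 14.4% and 3.4% of all genes given above. Mgl2, the close relative of Clec10a, was 1.07 lower on the log2 scale in AIRmax pristane than in AIRmax control footpads in the fit, a 2.11-fold difference with no overlap (adjusted p = 0.102 by limma). Its difference of the responses was -0.32 (-1.09 to 0.44, adjusted p = 0.899 by limma), so the fall was not shown to be particular to AIRmax.

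Among the adaptors and kinases next to the receptors, 15 of 17 listed genes were measured. Lat2, a membrane adaptor of myeloid cells, was the 1 gene called, beside 1.36% of all genes. It was 1.37 higher in AIRmax pristane than in AIRmin pristane footpads (adjusted p = 0.0317 by limma). There 8 of the 15 had an unadjusted p under 0.05, all 8 higher in AIRmax, beside 18.8% of all genes. Fcer1g, the signalling partner of Clec4d, Clec4e and Clec4n, differed there by 1.41 and Syk by 1.09 (adjusted p = 0.0808 and 0.111 by limma), both being named for their role. In controls limma called 0 of 15, 9 had an unadjusted p under 0.05 (16.8% of all genes) and SAM called 0 (1.29% of all genes). Of the 14 measured partners of Card9 in the NF-kappaB pathway, 1 was called between the lines after pristane, beside 1.36% of all genes. This was Tnfaip3, which encodes the NF-kappaB brake A20 (0.75, adjusted p = 0.0329 by limma). In the AIRmax response limma called 0 of these 14, 5 had an unadjusted p under 0.05 (14.4% of all genes) and SAM called 1 (3.4% of all genes). The smallest p values were those of Nfkbiz (0.88, adjusted p = 0.0983 by limma) and Nfkb2 (0.56, adjusted p = 0.160 by limma). Of 9 phosphatases and brakes, Socs3, a feedback inhibitor of cytokine signalling, passed in the AIRmax response (1.71, adjusted p = 0.00265 by limma), between the lines after pristane (1.54, adjusted p = 0.0113 by limma) and in the difference of the responses (1.90, adjusted p = 0.000417 by limma). It was the 1 call of the 9 in each, beside 0.281%, 1.36% and 0.171% of all genes in turn. Between the lines after pristane 7 of the 9 had an unadjusted p under 0.05, all higher in AIRmax (18.8% of all genes).

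Another list held 24 genes placed downstream of these receptors, cytokines and chemokines with inflammasome parts and caspases among them. Of these, 3 were called in the AIRmax response (0.281% of all genes), all higher. They were Cxcl2 (1.87), Nos2 (1.21) and Ccl3 (2.89), which encode a neutrophil chemokine, the inducible nitric oxide synthase and a macrophage chemokine. The median of the 24 was 0.49, against 0.029 over all genes. In the AIRmin response limma called 0 of 24, 3 had an unadjusted p under 0.05 (12.4% of all genes) and SAM called 0 (1.95% of all genes). Between the lines after pristane 6 were called higher in AIRmax and 1 lower, beside 1.36% of all genes in either direction. By smallest p these were Nlrp3 (1.09), an inflammasome sensor, Il1a (-0.77), Ccl3 (3.23) and Nos2 (1.05). In the difference of the responses Ccl2, a monocyte chemokine, was called at 2.07 and Nos2 at 1.21 (adjusted p = 0.0210 for both by limma), beside 0.171% of all genes.

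Cell type markers were read on the same arrays. Of 16 macrophage and monocyte markers 15 were measured, and Msr1 (1.82), Cd68 (0.81) and Cd14 (1.58) were called in the AIRmax response (0.281% of all genes). In that response 8 had an unadjusted p under 0.05 (14.4% of all genes), all higher. In the AIRmin response limma called 0 of the 15, 10 had an unadjusted p under 0.05 (12.4% of all genes), all lower, and SAM called 3 (1.95% of all genes). Between the lines after pristane 5 were called (1.36% of all genes), all higher in AIRmax. In the difference of the responses 3 were called (0.171% of all genes), Msr1, Cd14 and Cd68, with a median of 0.93 over the 15. Between controls limma called 0, 2 had an unadjusted p under 0.05 (16.8% of all genes) and SAM called 0 (1.29% of all genes). The median of the list was 0.51 in the AIRmax response and -0.44 in the AIRmin response, the same signs as those of Clec4n. The mean log2 signal of the list was 8.85 to 9.33 in AIRmax pristane and 8.40 to 8.70 in AIRmax control footpads, and 7.70 to 8.43 in AIRmin pristane and 8.28 to 8.59 in AIRmin control footpads. The log2 of their summed signal was 13.62 to 14.12, 13.19 to 13.68, 12.42 to 13.29 and 13.09 to 13.44 in the same order. Of 12 mature neutrophil markers 11 were measured. The log2 of their summed signal was 12.54 to 14.31 in AIRmax pristane and 12.71 to 14.28 in AIRmax control, and 10.60 to 13.67 in AIRmin pristane and 10.43 to 12.82 in AIRmin control footpads. Limma called 0 of these 11 in each of the 4 comparisons of groups. In the AIRmax response, the AIRmin response, the lines after pristane and the lines in controls, 0, 0, 3 and 9 had an unadjusted p under 0.05. The shares of all genes were 14.4%, 12.4%, 18.8% and 16.8% in turn. SAM called 0, 0, 0 and 1 in the same order. The 9 granulocyte precursor markers, with sums of 12.58 to 14.95, 13.32 to 14.93, 10.88 to 14.21 and 9.99 to 13.11, gave 0 calls, 9 of 9 at an unadjusted p under 0.05 between the lines in controls, and 0 by SAM.

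Markers of other cell types were read likewise. The share of all genes at an unadjusted p under 0.05 was 14.4% in the AIRmax response and 12.4% in the AIRmin response. It was 18.8% between the lines after pristane. Of 8 skeletal muscle markers, 7 had an unadjusted p under 0.05 in the AIRmax response, all lower (median -0.95, 0 called by limma, 6 by SAM), and 0 did in the AIRmin response (0 called by limma or SAM). The mean log2 signal of the muscle markers was 8.45 to 10.07 in AIRmax pristane and 9.89 to 10.45 in AIRmax control footpads. Of 6 fibroblast markers, 6 had an unadjusted p under 0.05 in the AIRmin response, all lower (median -0.98, 0 called by limma, 4 by SAM), and their mean was 9.52 to 10.50 in AIRmin pristane and 10.80 to 11.17 in AIRmin control footpads. In the AIRmax response 1 of the 6 did, with a median of 0.046. In AIRmax pristane minus AIRmin pristane footpads the median was -1.22 for the muscle markers (8 of 8 lower at an unadjusted p under 0.05, 1 called by limma) and 1.08 for the fibroblast markers (4 of 6 higher, 1 called by limma). All 5 measured B cell markers had an unadjusted p under 0.05 in both responses, lower in each (medians -1.39 in AIRmax and -1.29 in AIRmin, 0 called by limma, 5 and 2 by SAM). Of 5 adipocyte markers, 4 in AIRmax and 2 in AIRmin did so, all lower (medians -1.26 and -0.65, 0 called by limma, 4 and 1 by SAM). Of 5 endothelial markers, 1 in AIRmax and 4 in AIRmin did so, all lower (0 called by limma or SAM). Of 6 T cell markers, 4 and 1 did, all lower (0 called by limma, 2 and 0 by SAM). Among 8 dendritic cell markers, 1 was higher and 2 lower at that threshold in AIRmax, and 2 were lower in AIRmin. Limma called 1 of the 8 in AIRmax, a lower one, beside 0.281% of all genes. The part of any of these cell types in the values of the 7 genes was not tested.

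Within groups the genes followed these markers to differing degrees. Clec4e had its highest and its lowest array in common with the mature neutrophil markers in 4 of 4 groups, and Clec12a its highest array in 4 of 4 and its lowest in 2 of 4. Over the 16 arrays the deviation of Clec12a from its group mean differed from that of the neutrophil mean by 0.19 on average, and that of Clec4e by 0.26. Clec4n stood nearer to the macrophage mean (0.25) than to the neutrophil mean (0.68), and so did Clec4d, Clec7a, Clec10a and Card9. These distances are not scaled. The macrophage mean varied less within groups (SD 0.14 to 0.34) than the neutrophil mean (SD 0.81 to 1.36). A gene of small spread thus lies nearer to the macrophage mean whichever list it follows. By shared arrays Clec4n had its highest in common with the macrophage markers in 2 of 4 groups and its lowest in 1 of 4, against 1 and 3 of 4 for the neutrophil markers. For Clec7a these were 1 and 1 of 4 with the macrophage markers, against 3 and 2 with the neutrophil markers. For Clec4d and for Card9 they were 3 and 1, against 3 and 2. For Clec10a they were 1 and 2, against 0 and 1. Array 108, rich in granulocyte precursor RNA, was the highest AIRmax control array for 5 members and the lowest for Clec4n. Array 112 was the highest AIRmax pristane array for 6 members and the lowest for Clec10a, and array 119 the lowest AIRmin pristane array for 5 members.

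**Figure D4:**
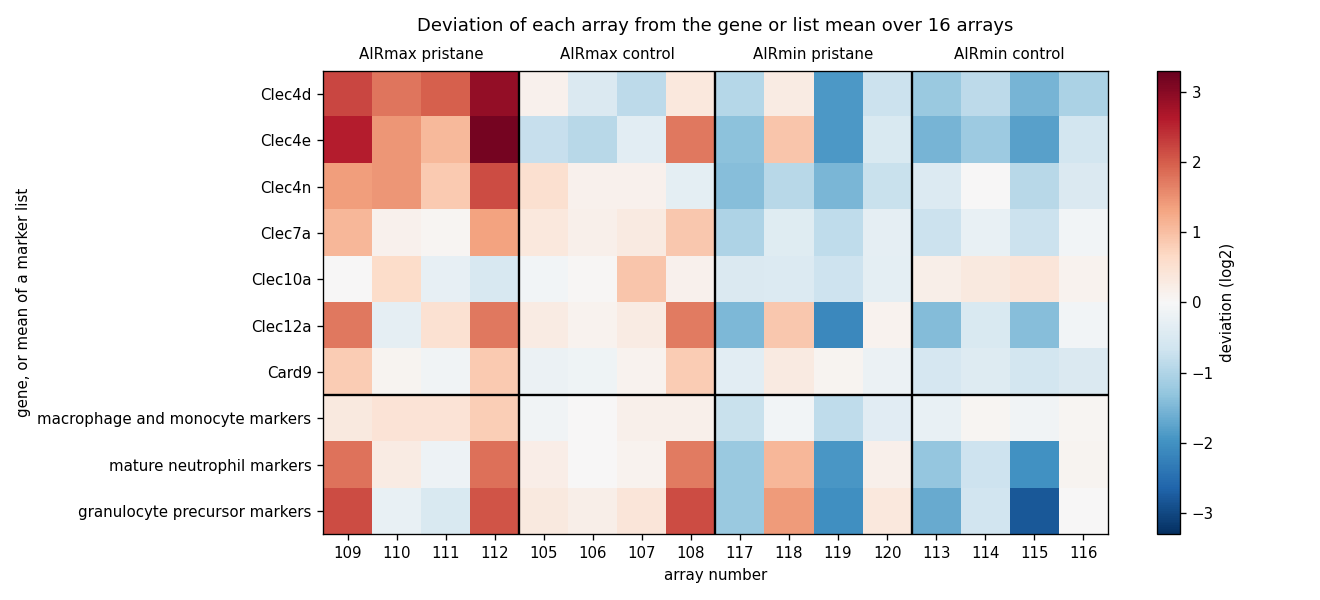
Deviation of each array (columns, by array number and group) from the 16-array mean of each gene and of 3 marker lists (rows), in log2 units as colour. Clec4e and Clec12a are high on arrays 108, 109, 112 and 118, as the neutrophil and precursor markers are. Clec4e is also high on arrays 110 (1.46) and 111 (1.07), unlike the neutrophil markers (0.26 and -0.17) and the precursor markers (-0.25 and -0.51). Clec4d, Clec4e, Clec4n and Clec7a are above their means on all 4 AIRmax pristane arrays. Clec4n is below its mean on array 108, on all 4 AIRmin pristane arrays and on arrays 113, 115 and 116 of AIRmin control.

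The genes whose array values lay nearest to each member were found by the mean absolute difference of the deviations from the 16-array means. For Clec4d they were Ccl3 (0.407), Cxcl5 (0.486) and Il1b (0.498), a macrophage chemokine, a neutrophil chemokine and interleukin 1 beta. For Clec4e they were Slpi (0.437), Trem1 (0.449) and AA467197 (0.492), Trem1 being an amplifying receptor of neutrophils. For Clec4n they were Ms4a7 (0.264), Tlr1 (0.357) and Msr1 (0.368), of which Msr1 is the macrophage scavenger receptor and Tlr1 a receptor for bacterial lipopeptide. Ms4a7 and Msr1 passed in the difference of the responses (2.10 and 2.23, adjusted p = 0.0163 and 0.000427 by limma). Tlr1 did not (0.69, adjusted p = 0.510 by limma). These genes were picked for nearness to Clec4n over all 16 arrays, group differences included, so their calls are not separate evidence.

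Clec12a stood nearest to Cybb (0.157), Rac2 (0.162) and Ncf1 (0.186), all 3 of them parts of the phagocyte NADPH oxidase. Clec7a was nearest to Neurl3 (0.127), Csf2rb2 (0.153) and Cd53 (0.163), and Card9 to Nin (0.0924), Vasp (0.114) and Sema4a (0.126). Clec10a was nearest to Reps2 (0.172), Mrc1 (0.177) and Cbr2 (0.212), and Mrc1, like Clec10a, was low in AIRmin pristane footpads (-0.81). Between members the smallest such distances were those of Clec7a with Card9 (0.327) and of Clec4d with Clec4e (0.483), and the largest was that of Clec4e with Clec10a (1.43). The arrays share their groups and their cell content, and genes that vary little lie near to many others, so these distances describe the 16 arrays only.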

How the data were processed

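Affymetrix Mouse Gene 1.0 ST arrays were hybridized with total footpad RNA, 1 array for each of 16 mice. The authors deposited normalized log2 signals per probe set. The sample titles name gene-level RMA and the submitters' notes name MAS5, with no version, and a genome build is not given in the sources used here. The values were used as deposited. Probe sets naming 1 gene (21789 of 35556) were kept, and each of 19938 genes was read from its brightest probe set by the mean of the 16 arrays. The 7 genes and all gene lists were chosen with earlier results of these data known.

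Groups were compared with limma 3.58.1 in R 4.3.3 (lmFit, eBayes with a constant prior), on the arrays of the 2 groups, or on all 16 for the difference of the responses. Benjamini-Hochberg adjustment ran over all genes, and an adjusted p under 0.05 counted as called. SAM was written for this work from its published description, with all relabellings of the arrays and a false discovery rate of 0.05. Both were tested on simulated data. Nothing in the labels says that the mice of a group were housed or processed apart. Precision rests on the spread among 4 arrays a group, since array signal has no counted depth.

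Named genes are the 7 members, the called genes of each list (at most 4 with the smallest p, or 2 where none was called), the 3 genes nearest to each member, and, added later, the neighbours on chromosome 6 and Fcer1g, Syk and Mgl2. Listed genes with no probe set of their own were not analysed here. The alternatives were SAM, sex as a covariate, 1 fit of all 16 arrays, a prior that was trended and robust, averaged probe sets, a filter at the median signal, arrays standardized as in the study, quantile normalization, each array left out in turn and, added after seeing the data, leaving out the 4 arrays with the most granulocyte precursor signal. Tables, promoter searches and figures were made with Python 3.11.15, pandas 2.3.3, numpy 2.4.6 and matplotlib 3.10.9.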

Additional observations from a re-analysis of the deposited data

Results flagged for a closer look

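Clec12a had 1 array far from the others of its group. In AIRmax control footpads array 108 read 9.79, against 8.34, 8.18 and 8.33 on the other 3 arrays. Of 28 sets of 4 arrays (7 genes in 4 groups) it was the 1 with such a lone array, and chance gives about 1 in 20. Array 108 was also the AIRmax control array with the most granulocyte precursor signal (11.45). The part of that RNA in the value was not tested.

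The response of Clec4n differed between the lines by 2.02 on the log2 scale (1.33 in AIRmax and -0.68 in AIRmin, adjusted p = 0.0434 from the interaction test of limma). All 4 AIRmax pristane arrays were above all 4 AIRmax control arrays, while the AIRmin pristane and AIRmin control arrays overlapped. The call was lost in 11 of the 16 fits that left out 1 array (adjusted p = 0.0502 to 0.112 in limma) and without arrays 108, 109, 112 and 118 (1.64, adjusted p = 0.0833 by limma).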

How the results depend on the processing

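With 4 arrays a group, calls near the threshold depended on single arrays and on the estimate of the spread. Of 622 values of the 7 genes under alternatives, 564 kept their direction and their side of the threshold, 17 passed where they had not, 21 no longer passed and 20 turned direction. Members called in the AIRmax response were 1, against 0 among genes above the median signal, 2 with all 16 arrays in 1 fit, 2 without arrays 108, 109, 112 and 118 (those richest in granulocyte precursor RNA) and 3 by SAM, and 0 to 1 with an array left out. In the AIRmin response they were 0, against 1 (Clec10a) among genes above the median signal, with a trended robust prior, without the 4 arrays and by SAM, and 0 to 1 with an array left out. Between the lines after pristane they were 2, against 0 among genes above the median signal, 4 with all 16 arrays in 1 fit and 3 without the 4 arrays (Clec4e added), and 1 to 3 with an array left out. In controls they were 0, against 1 (Clec7a) by SAM, and 0 with any array left out. Of the 4 arrays only 118 enters the AIRmin response and only 108 the comparison of controls. There the fit without the 4 arrays repeats the fit without that 1 array, and both are counted among the 622 values. For the difference of the responses they were 1 (Clec4n), against 0 among genes above the median signal and 1 without the 4 arrays (Clec4d, not Clec4n), and 0 to 2 with an array left out. The filter at the median signal removed Clec4d, Clec4n and Card9. For the other settings the cause was not tested.

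Without those 4 arrays the responses in AIRmax were -0.16 for Clec7a and -0.12 for Clec12a, those in AIRmin were -0.016 for Clec4d and -0.31 for Clec12a, and the difference of the lines in controls was 0.028 for Clec10a. With 1 array left out, the AIRmin response ran from -0.016 to 0.71 for Clec4d and from -0.31 to 0.69 for Clec12a, Clec10a between the lines in controls from -0.23 to 0.11, and the difference of the responses from -0.37 to 0.63 for Clec12a and from -0.35 to 0.027 for Card9. No other direction turned.

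Genes called in the AIRmax response numbered 56, against 22 among genes above the median signal, 338 with all 16 arrays, 109 with sex as a covariate, 426 without the 4 arrays, 678 by SAM and 4 to 107 with an array left out. In the AIRmin response they were 0, against 44, 11, 2, 138 and 388 in the same order (0 to 138 with an array left out), 3 with standardized arrays, 4 with quantile normalization and 33 with a trended robust prior. Between the lines after pristane they were 271, against 1519 with all 16 arrays, 173 with sex as a covariate, 134 without the 4 arrays and 14 to 520 with an array left out. In controls they were 16, against 7 among genes above the median signal, 35 with all 16 arrays, 31 with sex as a covariate, 258 by SAM and 9 to 19 with an array left out. For the difference of the responses they were 34, against 59 with standardized arrays, 53 with quantile normalization, 84 without the 4 arrays and 15 to 120 with an array left out. No paired analysis was possible because the labels give the groups no shared replicate numbers.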
